A study of Sus scrofa with 15 samples.

Results

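The toll-like receptor genes TLR1 to TLR10 were followed in the backfat of growing Iberian pigs fed olive by-products. Members were chosen by symbol and matched to the gene identifiers of the count tables, and 10 of the 30477 listed genes made up the family. All 10 were found in each library, and 9 of them passed the filter on low counts and were tested among 14918 genes. TLR10 did not pass it.

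The libraries were made from RNA of subcutaneous backfat biopsies, 1 library per pig, with 5 pigs per diet. All pigs were of the Iberian breed, about a year old, and had been kept on their diet through the growing period on restricted amounts of compound feed. The control diet (C) was a compound feed without olive by-product. The DOP diet was a compound feed that contained dry olive pulp, and the WCOC diet was a compound feed without by-product offered beside a silage of wet crude olive cake and barley straw, of which the pigs ate freely. Compound feed was restricted more tightly in DOP and WCOC than in C, so by-product and feeding level cannot be told apart. Each diet was fed in 1 pen, so diet and pen cannot be told apart either. The 5 pigs per diet were picked mainly by the amount and quality of their RNA.

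The depth was 22373715 to 34745218 gene counts per library. The RNA was that of fat: ADIPOQ, the adipocyte hormone adiponectin, had 5011 ± 1344 CPM (gene counts scaled to library size; mean ± SD, n = 15). The DOP libraries and control 5 were read on 1 flow cell (B) and the other libraries on another (A). Control 3 and control 5 stood apart by their macrophage markers, whose summed level was 663 and 858 CPM against 146 to 496 CPM in the other 13 libraries. Markers of skeletal muscle reached 40652 CPM in DOP 5, 9157 CPM in DOP 2 and 5164 CPM in DOP 4.

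Toll-like receptors are membrane proteins of innate immunity that sense molecules of microbes and of damaged cells. TLR1, TLR2, TLR4, TLR5, TLR6 and TLR10 act mainly at the cell surface, where TLR2 pairs with TLR1 or TLR6 to sense lipopeptides, TLR4 senses lipopolysaccharide and TLR5 senses flagellin. TLR3, TLR7, TLR8 and TLR9 act in endosomes and sense nucleic acids. Most signal through the adaptor MYD88 to NF-kB and to interferon regulatory factors, and TLR3 signals through TICAM1. In fat, resident macrophages carry much of this family, while adipocytes and vessel cells express some members too. In bulk RNA, fewer cells of a type and less RNA per cell cannot be told apart.

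TLR7 was the most abundant member. Divided by coding length, its level was 21.3 ± 3.62 CPM per kb (mean ± SD, n = 15), and it made up 41.0% to 62.6% of the summed CPM of the family. TLR4 followed with 7.11 ± 1.76 CPM per kb, TLR3 with 4.75 ± 0.968 and TLR5 with 3.26 ± 1.38. The lower part of the order was TLR1 with 2.07 ± 0.376, TLR8 with 2.02 ± 2.19, TLR2 with 1.53 ± 0.899 and TLR6 with 1.44 ± 0.304 CPM per kb. TLR9 had 0.254 ± 0.188 and TLR10 0.0806 ± 0.0585 CPM per kb. The order was the same when levels were divided by the length of all exons.

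Of the neighbours in this order, TLR7 and TLR4 did not overlap over the 15 libraries, nor did TLR6 and TLR9. TLR4 lay above TLR3 in 14 of 15 libraries, TLR3 above TLR5 in 14 and TLR9 above TLR10 in 13, with overlapping ranges. TLR5, TLR1, TLR8, TLR2 and TLR6 were not separated from their neighbours in the same way: TLR5 exceeded TLR1 in 11 libraries, TLR8 exceeded TLR2 in 9, and TLR2 exceeded TLR6 in 5 although its mean was higher. TLR8 held rank 4 in C, rank 8 in DOP and rank 7 in WCOC. TLR8 also spread most, with a 26.2-fold range from lowest to highest library, against 1.65-fold for TLR7.

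**Figure D1:**
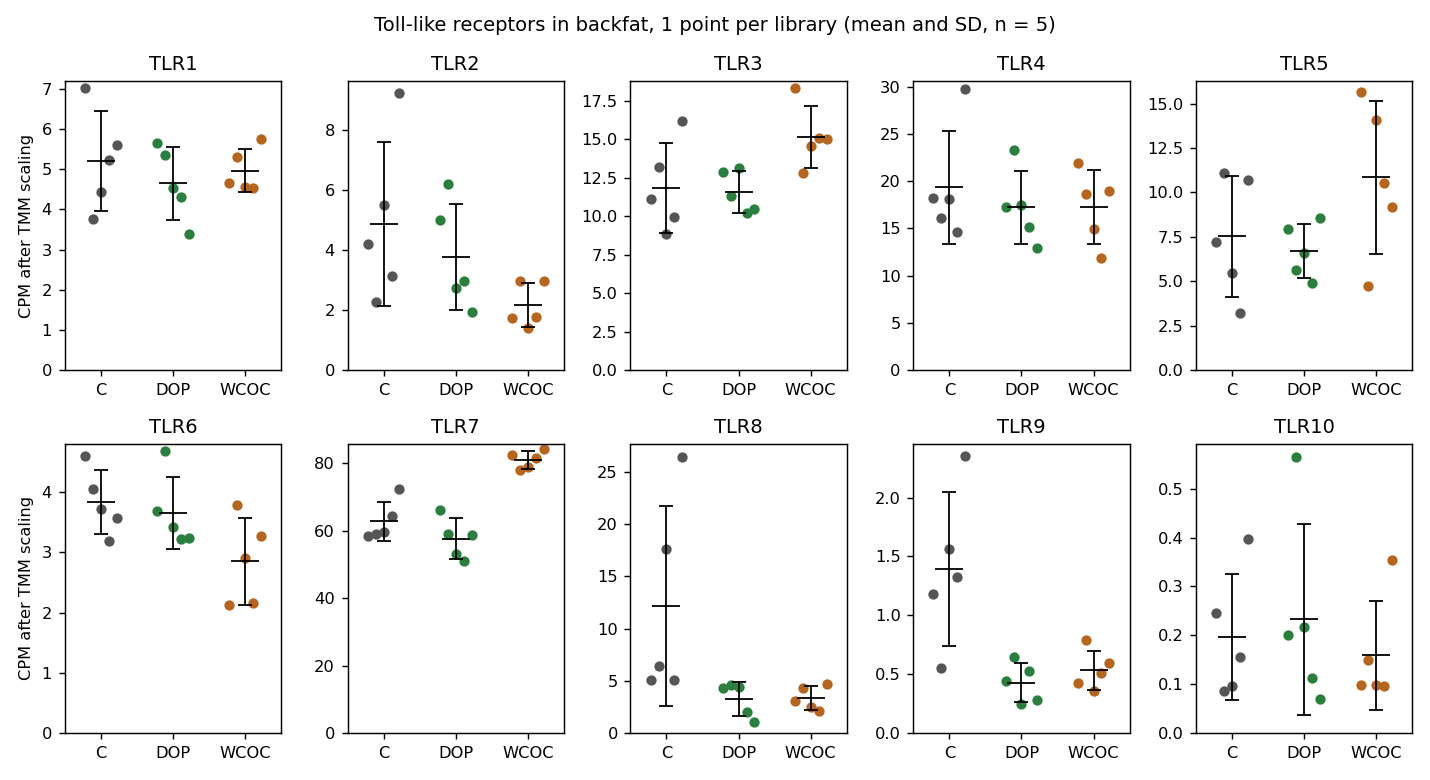
Level of each toll-like receptor by diet, in CPM after TMM scaling, with 1 point per library, the mean as a bar and the SD as a whisker (n = 5). The WCOC points of TLR7 lie above all others, and the C points of TLR8 include 17.6 and 26.4 CPM in control 3 and control 5.

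A differentially expressed gene (DEG) was defined, with the limits of the study, as a gene with an adjusted p under 0.05 and a log2 fold change (log2FC) of at least 0.58 in size. Unless another tool, setting or test is named, adjusted p-values are from edgeR's quasi-likelihood test with Benjamini-Hochberg adjustment over the 14918 genes, and alternative fits were adjusted over the genes each of them tested. DOP vs. C and WCOC vs. C used the same 5 control libraries, so their values stand side by side and do not support each other. In DOP vs. C, 1 of the 9 tested receptors was a DEG, lower in DOP, where 0.764% of all tested genes were DEGs and 0.550% were DEGs with a lower level. In WCOC vs. C, 2 of 9 were DEGs, both lower in WCOC, against 6.25% of all tested genes in either direction and 3.93% in the lower direction. In WCOC vs. DOP, which is also the test of the difference between the effects of the olive diets, edgeR called 0 of 9, against 7.76% of all tested genes (5.11% lower and 2.65% higher). An unadjusted p under 0.05 was found for 2 of 9 receptors in DOP vs. C, 6 of 9 in WCOC vs. C and 2 of 9 in WCOC vs. DOP, against 17.6%, 26.4% and 28.1% of all tested genes.

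**Figure D2:**
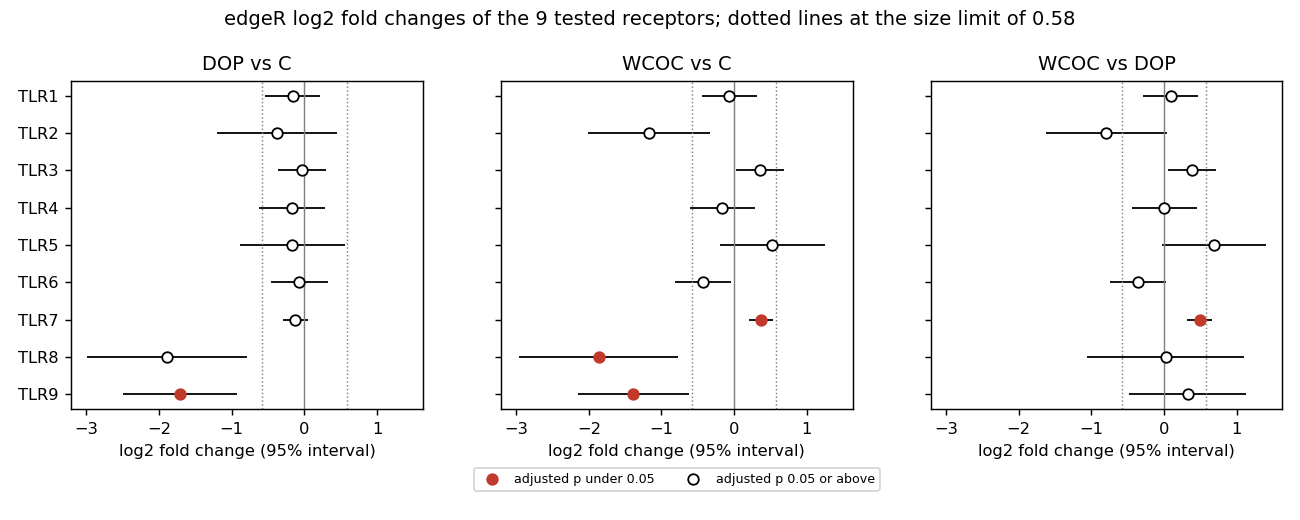
Log2FC of the 9 tested receptors in the 3 comparisons, with 95% intervals as lines and dotted lines at 0.58 in either direction. Filled points had an adjusted p under 0.05: TLR9 in DOP vs. C, TLR7, TLR8 and TLR9 in WCOC vs. C, and TLR7 in WCOC vs. DOP.

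TLR7, the endosomal receptor for single-stranded RNA rich in guanosine and uridine, was higher in WCOC than in both other diets, by less than the size limit. It had 82.5, 78.0, 79.0, 81.7 and 84.2 CPM in the WCOC pigs. The controls had 58.6, 59.2, 59.6, 64.4 and 72.5 CPM. The DOP pigs had 66.3, 59.1, 53.0, 50.9 and 58.9 CPM. The lowest WCOC library lay above the highest control and above the highest DOP library, so the groups did not overlap, as in 7.62% of all tested genes for WCOC vs. C and 8.90% for WCOC vs. DOP. C and DOP overlapped, and WCOC was the group with the least spread (CV 3.15%, against 9.34% in C and 10.5% in DOP).

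The log2FC of TLR7 was 0.37 (SE 0.0791, adjusted p = 0.0120 by edgeR) in WCOC vs. C, which is 1.29-fold. In WCOC vs. DOP it was 0.49 (SE 0.0792, adjusted p = 0.00280 by edgeR), or 1.41-fold. Neither reached the size limit, so neither was a DEG. An adjusted p under 0.05 with a higher level and no size limit was met by 4.60% of all tested genes in WCOC vs. C and by 5.15% in WCOC vs. DOP. Between DOP and C the log2FC was −0.12 with a 95% interval from −0.29 to 0.04 (adjusted p = 0.446 by edgeR).

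The TLR7 difference stayed at a log2FC of 0.34 to 0.42 in WCOC vs. C when each of the 10 libraries was left out in turn, with adjusted p from 0.00726 to 0.0396 (edgeR). Within flow cell A alone, with 4 controls and 5 WCOC pigs, it was 0.41 (adjusted p = 0.0168 by edgeR). DOP and WCOC were read on separate flow cells, linked only through the controls. With flow cell as a covariate the difference between WCOC and DOP was 0.75 with an adjusted p of 0.196 (edgeR), in a fit that called 1 gene of all. With the mean of the macrophage markers as a covariate, the log2FC in WCOC vs. C was 0.46 (SE 0.11, adjusted p = 0.105 by edgeR), in a fit that called 35 genes of all.

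TLR7 lies on chromosome X at 9573178-9576987, plus strand, Sscrofa11.1. Its RefSeq record is a single exon marked as partial and lies within the span of TLR8 (chromosome X, 9551284-9616762) on the same strand. A read of TLR8 RNA from this place cannot be told apart from a TLR7 read. The reads were counted on Ensembl models, whose exons were not compared with these. No promoter was taken for TLR7, since the record does not give a full 5′ end.

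TLR8, the other endosomal receptor for single-stranded RNA, fell in WCOC vs. C, and its level differed widely between the controls. The controls had 5.10, 6.41, 17.6, 5.02 and 26.4 CPM. The WCOC pigs had 3.04, 4.27, 2.48, 2.13 and 4.72 CPM. The DOP pigs had 4.34, 4.57, 4.44, 1.99 and 1.01 CPM. Each control lay above every olive-fed pig, including the controls other than 3 and 5, whereas the ranges of WCOC and DOP overlapped. Non-overlapping values were found in 7.62% of all tested genes in WCOC vs. C and in 3.47% in DOP vs. C.

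The log2FC of TLR8 in WCOC vs. C was −1.87 (SE 0.513, adjusted p = 0.0337 by edgeR), or 0.274 of the control level. For DOP the value was −1.89 (SE 0.515, adjusted p = 0.0944 by edgeR), which was not a DEG, while DESeq2 gave an adjusted p of 0.00512. Between WCOC and DOP the log2FC was 0.03 with a 95% interval from −1.06 to 1.11, too wide to exclude a 2-fold difference either way. Within each library, the ratio of TLR7 to TLR8 counts, which is not affected by scaling between libraries, was 2.74 to 12.8 in C, 11.9 to 58.2 in DOP and 17.8 to 38.4 in WCOC. The ratios of C and WCOC did not overlap, those of C and DOP did, and the lowest were those of control 3 (3.38) and control 5 (2.74).

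Control 3 and control 5 carried much of the TLR8 difference. Without both, which was tried after seeing the data, the log2FC was −0.73 in WCOC vs. C (adjusted p = 0.372 by edgeR) and −0.75 in DOP vs. C (adjusted p = 0.519 by edgeR). Without control 5 alone it was −1.36 (adjusted p = 0.0933 by edgeR) in WCOC vs. C, and without control 3 alone −1.70 (adjusted p = 0.0817 by edgeR). Within flow cell A it was −1.37 (adjusted p = 0.0793 by edgeR). Flow cell B held 1 control, so DOP vs. C had no value within a flow cell. With flow cell as a covariate, the log2FC in DOP vs. C was −3.01 for TLR8 and −2.46 for TLR9, with adjusted p of 0.0351 and 0.0250 (edgeR), and this fit compares DOP with control 5 through that flow cell.

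TLR9, the endosomal receptor for unmethylated CpG DNA, fell in both olive diets and was near the lower end of what could be counted. It had 1.18, 0.555, 1.56, 1.32 and 2.35 CPM in the controls. The DOP pigs had 0.442, 0.642, 0.247, 0.528 and 0.279 CPM. The WCOC pigs had 0.425, 0.786, 0.359, 0.508 and 0.590 CPM. These levels came from 13 to 71 counts per control library, 8 to 17 in DOP and 11 to 21 in WCOC. Control 2 lay within the range of both olive diets, and the other 4 controls lay above all olive-fed pigs.

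The log2FC of TLR9 was −1.72 (SE 0.368, adjusted p = 0.0452 by edgeR) in DOP vs. C, or 0.304 of the control level. In WCOC vs. C it was −1.39 (SE 0.358, adjusted p = 0.0254 by edgeR), or 0.381 of the control level. Between WCOC and DOP it was 0.33 with a 95% interval from −0.48 to 1.13. Without control 3 and control 5, the log2FC was −1.26 in DOP (adjusted p = 0.333 by edgeR) and −0.93 in WCOC (adjusted p = 0.203 by edgeR), and within flow cell A it was −1.13 in WCOC vs. C (adjusted p = 0.0846 by edgeR). TLR9 lies on chromosome 13 at 34353444-34370990, minus strand, where 1 predicted RefSeq model runs on through exons of its neighbour TWF2 on the same strand, so its count is uncertain. When 1 library at a time was left out, the DOP call remained in 2 of 10 fits and the WCOC call in 5 of 10.

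The promoters of TLR8 and TLR9, the receptors called in a comparison, are shown as a description. A link between these sequences and the levels was not tested. Each run is the 250 bases before the start of the curated RefSeq transcript, Sscrofa11.1, written along the sense strand. Capitals mark GAGGAA on either strand, a core that ETS factors such as the myeloid factor PU.1 bind. TLR8 comes from chrX:9600928-9601177 (plus strand) and TLR9 from chr13:34357650-34357899 (minus strand).
TLR8: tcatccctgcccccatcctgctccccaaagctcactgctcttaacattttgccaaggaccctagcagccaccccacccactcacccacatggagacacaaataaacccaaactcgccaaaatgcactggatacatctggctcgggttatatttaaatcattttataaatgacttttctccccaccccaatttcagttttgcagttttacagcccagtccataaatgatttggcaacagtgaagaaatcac
TLR9: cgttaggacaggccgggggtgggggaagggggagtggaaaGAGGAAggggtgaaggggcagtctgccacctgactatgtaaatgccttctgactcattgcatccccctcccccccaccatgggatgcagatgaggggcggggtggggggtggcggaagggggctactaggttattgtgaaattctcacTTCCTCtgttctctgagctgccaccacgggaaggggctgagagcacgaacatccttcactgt
The TLR9 window held the ETS core at 2 places and the TLR8 window at none. The core was found in 21.9% of 19278 promoters of this length, and in 3 of the 9 receptors with such a window (TLR1, TLR4 and TLR9). Neither window held the letters searched for the NF-kB site, present in 59.2% of all promoters, or those for the interferon-stimulated response element, present in 2.98%, both searched on either strand. The TLR8 window held TATAAA, overlapping its own reverse complement, which was present in 9.69% of all promoters. A longer predicted TLR8 model starts upstream of this window, so other starts are annotated. For the shares of all promoters, each window lay before the outermost annotated start of its gene, not before a curated transcript. Those shares are therefore not strictly comparable with the receptor windows.

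**Figure D3:**
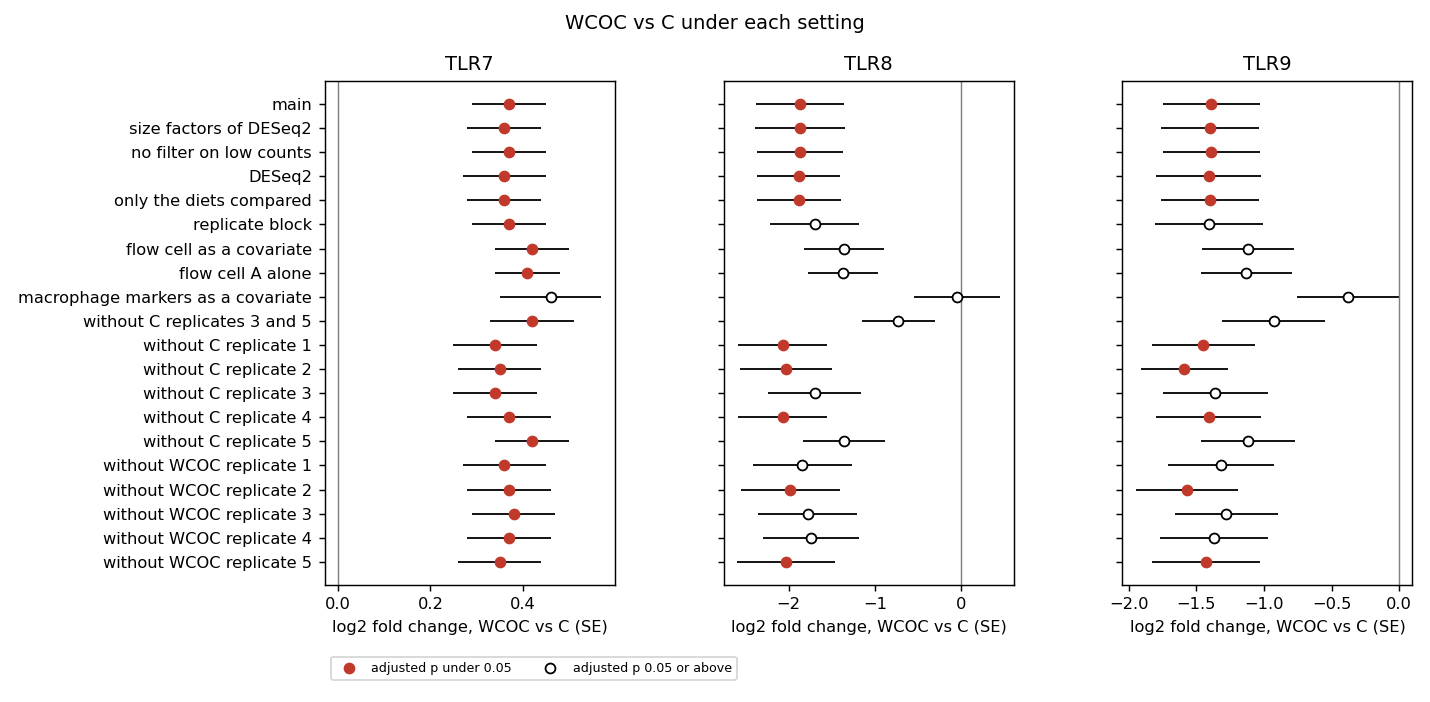
Log2FC of TLR7, TLR8 and TLR9 in WCOC vs. C under each setting, with the SE as lines; filled points had an adjusted p under 0.05. The TLR7 values lie between 0.34 and 0.46, and the TLR8 values between −2.07 and −0.05.

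Markers of macrophages moved with TLR8, TLR9 and TLR2. The list held 14 measured genes, none of them at 0 in any library, led by CSF1R, the receptor for the macrophage growth factor. Its summed level was 308 to 858 CPM in C (median 402), 197 to 496 in DOP (median 323) and 146 to 398 in WCOC (median 180). Of the 14, 6 were DEGs in WCOC vs. C, all lower, against 3.93% of all tested genes, and 1 in DOP vs. C, also lower, against 0.550%. The scavenger receptor MSR1 had a log2FC of −2.68 (adjusted p = 0.0175 by edgeR) in WCOC and −3.18 (adjusted p = 0.0397 by edgeR) in DOP. CD68, a lysosomal protein of macrophages, had −2.11 in WCOC (adjusted p = 0.0141 by edgeR), and the other 4 DEGs were CD163, MRC1, AIF1 and VSIG4. The list did not move evenly. In DOP vs. C, CD163 had a log2FC of 0.14, C1QA −0.05, C1QC −0.14 and MRC1 −0.18, and in WCOC vs. C SIGLEC1 had −0.05.

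The relation was computed over the 15 libraries on log2 CPM with each diet's mean removed, for the 9 receptors against the macrophage and the adipocyte lists, which made 18 relations with permutation p-values. TLR2 followed the mean of the macrophage markers with Pearson r = 0.878 (permutation p = 0.00011, adjusted 0.00198) and Spearman rho = 0.832 (permutation p = 0.00033, adjusted 0.00594). For TLR8, r was 0.802 (permutation p = 0.00121, adjusted 0.00906) and rho 0.746 (permutation p = 0.00403, adjusted 0.0242). For TLR9, r was 0.757 (permutation p = 0.00151, adjusted 0.00906) and rho 0.757 (permutation p = 0.00293, adjusted 0.0242). These 3 relations had r = 0.865, 0.795 and 0.644 without the libraries farthest from the median, control 5 and WCOC 2.

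No other relation passed the adjustment. TLR7 had r = 0.359 with the macrophage list (permutation p = 0.210, adjusted 0.420) and TLR3 had r = −0.00379 (permutation p = 0.990). TLR4 had r = 0.579 (permutation p = 0.0427, adjusted 0.157). With the adipocyte list, the relation of smallest p was that of TLR5, with r = −0.567 (permutation p = 0.0437, adjusted 0.157).

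With the macrophage mean as a covariate in the fit, the log2FC of TLR8 in WCOC vs. C was −0.05 (SE 0.50) and that of TLR9 −0.38 (SE 0.38), with adjusted p of 0.984 and 0.751 (edgeR). The DOP values were −0.68 (SE 0.40) and −1.03 (SE 0.32), with adjusted p of 0.755 and 0.372 (edgeR). The covariate itself differed between the diets, so its share and that of the diet in these values cannot be told apart.

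**Figure D4:**
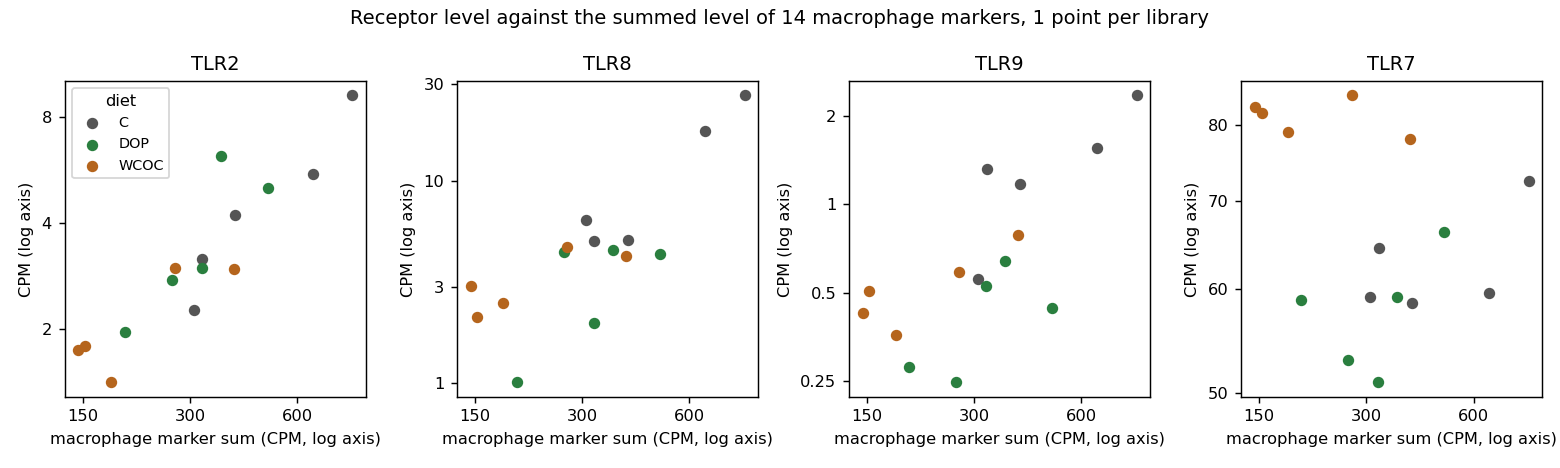
Level of TLR2, TLR8, TLR9 and TLR7 (CPM, log axis) against the summed level of 14 macrophage markers (CPM, log axis), with 1 point per library coloured by diet. Control 3 and control 5 are the points at 663 and 858 CPM; the 5 WCOC points of TLR7 lie above all others at marker sums from 146 to 398 CPM.

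Markers of other cell types that carry these receptors were also counted. Markers of B cells, which express TLR9 and TLR10, summed to 1.45 to 14.9 CPM per library. CD79A, a part of the B cell receptor, was listed at 0 in all 15, as was TBK1, a kinase of most cells, so these zeros are not read as absence. T cell markers summed to 3.53 to 23.3 CPM, dendritic cell markers to 23.02 to 66.4 CPM and neutrophil markers to 13.7 to 92.5 CPM. The dendritic cell sum was mostly ZBTB46, at 36.3 ± 10.9 CPM (mean ± SD, n = 15). The other dendritic cell markers had medians from 0.442 CPM (FLT3) to 1.40 CPM (FCER1A). Of these lists, only the dendritic cell list had a DEG in a comparison with C, XCR1 with a log2FC of −1.83 in WCOC (adjusted p = 0.0249 by edgeR). XCR1 was 1 of 6 tested dendritic cell markers, against 6.25% of all tested genes in either direction and 3.93% in the lower one. In WCOC vs. C, 4 of the 6 had a log2FC below 0, with a list median of −0.32. The 4 tested neutrophil markers had log2FC below 0 in both comparisons with C, and 1 of them had an unadjusted p under 0.05 in each. It was CSF3R, the receptor for a neutrophil growth factor, at 18.4 ± 13.2 CPM in C, 4.74 ± 5.74 in DOP and 4.39 ± 2.36 in WCOC (n = 5 each). Its log2FC was −1.96 in DOP (adjusted p = 0.191 by edgeR) and −2.07 in WCOC (adjusted p = 0.0915 by edgeR), and the part of neutrophils in the TLR8 values was not tested. The adipocyte list had 1 DEG of 8 tested genes, ADIPOQ, higher in WCOC than in C with a log2FC of 0.66 (adjusted p = 0.0281 by edgeR). The share of all tested genes was 6.25%. The endothelial, muscle and epidermal lists (6, 4 and 4 tested genes) had 0 DEGs against C in the edgeR fit. An unadjusted p under 0.05 was found for 4, 0 and 0 of them in WCOC, against 26.4% of all tested genes. In DOP it was found for 3, 2 and 3, against 17.6%. The median log2FC of these lists was 0.37, −2.33 and 1.22 in WCOC vs. C. In DOP vs. C it was 0.32, 3.41 and −2.83. Endothelial markers summed to 909 to 1616 CPM and epidermal ones to 2.02 to 144 CPM. DOP 5, with the highest muscle marker sum, had the lowest TLR8 level. DOP 2, with 9157 CPM of muscle markers, had the highest TLR8 level of its diet, 4.57 CPM. Control 3, with 3152 CPM of these markers, had 17.6 CPM of TLR8. A relation of TLR8 with the muscle markers was not tested. Without DOP 5, the log2FC in DOP vs. C was −1.66 for TLR8 and −1.60 for TLR9, with adjusted p of 0.182 and 0.0994 (edgeR).

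TLR2, the shared partner of the lipopeptide receptors, lies on chromosome 8 at 75416257-75428370 (minus strand) and was not a DEG in any comparison. It had 4.22, 2.26, 5.51, 3.16 and 9.24 CPM in the controls. The WCOC pigs had 1.73, 2.96, 1.40, 1.78 and 2.98 CPM. The DOP pigs had 5.02, 6.19, 2.75, 2.97 and 1.95 CPM. Control 5 was the highest library and control 2 lay among the WCOC pigs. The log2FC in WCOC vs. C was −1.17 (95% interval −2.01 to −0.34, adjusted p = 0.0718 by edgeR), and DESeq2 gave an adjusted p of 0.0213. Without control 2 it was −1.35 with an adjusted p of 0.0410, and without control 5 −0.80 with 0.187 (edgeR). Its log2FC in DOP vs. C was −0.38 (adjusted p = 0.668 by edgeR).

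TLR1 and TLR6, the partners of TLR2, share sequence, so their counts are uncertain. They lie next to each other on chromosome 8, minus strand, TLR1 at 30147600-30155454 and TLR6 at 30159744-30180650, with TLR10 beside them at 30124895-30134854. Their coding sequences were identical at 79.1% of 2369 aligned bases, and 507 of the 2316 windows of 76 bases in TLR1, the length of a read, were found unchanged in TLR6 (21.9%). A read that falls wholly within such a window matches both genes. TLR10 shared no such window with either, and its longest run in common was 37 bases. The longest run that TLR1 and TLR6 shared was 321 bases. Its first window of read length is shown once because it is the same in both genes (chr8:30148743-30148818 in TLR1 and chr8:30163056-30163131 in TLR6, Sscrofa11.1, minus strand).
TLR1 and TLR6: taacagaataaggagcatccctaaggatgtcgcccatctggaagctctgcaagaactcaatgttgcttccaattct

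Neither partner was a DEG. TLR1 had 7.01, 3.76, 4.43, 5.22 and 5.60 CPM in C, 3.38 to 5.66 CPM in DOP (median 4.54) and 4.54 to 5.75 CPM in WCOC (median 4.65). Its log2FC was −0.16 in DOP (95% interval −0.54 to 0.22) and −0.07 in WCOC (−0.44 to 0.31). TLR6 had 4.61, 4.06, 3.73, 3.19 and 3.58 CPM in C, 3.23 to 4.68 CPM in DOP and 2.13 to 3.78 CPM in WCOC, and the 3 ranges overlapped. Its log2FC in WCOC vs. C was −0.43 (95% interval −0.82 to −0.04, adjusted p = 0.152 by edgeR). TLR10, whose ligand is less well known, had 2 to 15 counts per library. Fitted without the filter on low counts, its log2FC was 0.23 (SE 0.59) in DOP vs. C and −0.28 (SE 0.61) in WCOC vs. C, and a difference of 2-fold would not be detectable at this depth.

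TLR4 and TLR5, the receptors for lipopolysaccharide and flagellin, were not found to differ beyond the spread between pigs, which was wide for TLR5. TLR4 lies on chromosome 1 at 258044610-258054641 (plus strand) and TLR5 on chromosome 10 at 19387666-19410024 (minus strand). TLR4 had 18.2, 16.1, 18.2, 14.6 and 29.7 CPM in C, 12.9 to 23.3 CPM in DOP and 11.9 to 21.96 CPM in WCOC. The C value of 29.7 CPM was that of control 5. The log2FC of TLR4 was −0.17 (95% interval −0.62 to 0.28) in DOP vs. C and −0.16 (−0.61 to 0.28) in WCOC vs. C. TLR5 had 7.21, 11.11, 5.45, 3.19 and 10.7 CPM in C, and 15.6, 4.75, 14.1, 10.5 and 9.20 CPM in WCOC. These ranges overlapped, and WCOC 2 was the lowest of its diet. The log2FC of TLR5 in WCOC vs. C was 0.53 (95% interval −0.19 to 1.25, adjusted p = 0.34 by edgeR). The DOP pigs lay between 4.92 and 8.54 CPM, and the log2FC of TLR5 in WCOC vs. DOP was 0.69 (95% interval −0.03 to 1.41, adjusted p = 0.197 by edgeR). Both intervals were wide, so a higher level in WCOC is not excluded.

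TLR3, the endosomal receptor for double-stranded RNA, lies on chromosome 15 at 46966262-46977774 (plus strand) and was not a DEG. It had 11.13, 13.2, 8.86, 9.93 and 16.2 CPM in C and 12.9, 11.3, 13.1, 10.2 and 10.5 CPM in DOP. The WCOC pigs had 18.3, 12.8, 14.6, 15.1 and 15.02 CPM. All WCOC pigs but WCOC 2 lay above all DOP pigs, and control 5 lay among them. The log2FC was 0.35 (95% interval 0.03 to 0.68, adjusted p = 0.156 by edgeR) in WCOC vs. C and 0.39 (0.06 to 0.71, adjusted p = 0.112 by edgeR) in WCOC vs. DOP. TLR3 and TLR5 were the receptors whose promoter windows held the letters of the interferon-stimulated response element.

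Of the other genes of the pathway, 61 of 75 listed were tested, in 5 lists by role. EdgeR called 0 of the 61 in DOP vs. C, with 19 at an unadjusted p under 0.05, against 0.764% and 17.6% of all tested genes. In WCOC vs. C it called 4, all lower, against 6.25% of all tested genes in either direction and 3.93% in the lower one. WCOC vs. DOP had 1 higher and 1 lower, against 2.65% and 5.11%. These shares are the background for the counts of each list that follows, and single calls in lists this short are not read as a result about a list. The median log2FC of all tested genes was 0.01 in DOP vs. C and 0.00433 in WCOC vs. C. Alternative fits were followed for the receptors only. The calls of pathway genes and markers were not checked without control 3 and control 5. Without both, edgeR called 289 genes of all in WCOC vs. C, against 933 in the main fit.

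Among co-receptors and chaperones, 1 of 8 was a DEG in WCOC vs. C, against 6.25% of all tested genes, with a list median of −0.31. It was CD180, a TLR4-like protein of the cell surface, at 1.502 ± 0.602 CPM in WCOC against 4.35 ± 3.06 in C (log2FC −1.53, adjusted p = 0.0369 by edgeR). HSP90B1, the chaperone that folds most toll-like receptors, was the most abundant member, at 224 ± 16.7 CPM in WCOC and 293 ± 26.0 in C (n = 5 each), with a log2FC of −0.39 (adjusted p = 0.00986 by edgeR) under the size limit. UNC93B1, which carries TLR7, TLR8 and TLR9 to endosomes and was picked after its values were seen, had 36.4 ± 12.5 CPM in C, 22.4 ± 5.30 in DOP and 29.1 ± 10.8 in WCOC (n = 5 each). Its log2FC was −0.70 in DOP (adjusted p = 0.196 by edgeR) and −0.32 in WCOC (adjusted p = 0.466 by edgeR).

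Of 18 adaptors and kinases, 1 was a DEG in WCOC vs. C, against 6.25% of all tested genes: PIK3AP1, an adaptor that links these receptors to PI3-kinase, at 13.9 ± 2.74 CPM against 29.2 ± 15.9 in C (log2FC −1.07, adjusted p = 0.0319 by edgeR). RIPK1, the most abundant member, had a log2FC of 0.07 (adjusted p = 0.684 by edgeR). MYD88 and IRAK2, also picked after their values were seen, had −0.10 (adjusted p = 0.469 by edgeR) and −0.57 (adjusted p = 0.0225 by edgeR), both under the size limit. An unadjusted p under 0.05 was found for 7 of the 18 in DOP and 4 in WCOC, against 17.6% and 26.4% of all tested genes. In WCOC, 14 of the 18 had a log2FC below 0. None of the 11 transcription factors was called by edgeR in either comparison with C, with 3 at an unadjusted p under 0.05 in DOP and 1 in WCOC. RELA, the most abundant of them and a subunit of NF-kB, had a log2FC of 0.16 in WCOC (adjusted p = 0.181 by edgeR).

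Of the 11 negative regulators, edgeR called 0 against C, with 2 at an unadjusted p under 0.05 in DOP and 3 in WCOC. SIGIRR, a receptor that dampens toll-like receptor signals, was a DEG in WCOC vs. DOP, at 12.1 ± 1.81 CPM against 7.31 ± 0.724 (log2FC 0.73, adjusted p = 0.00356 by edgeR). Against C its log2FC in WCOC was 0.54 (adjusted p = 0.0152 by edgeR), under the size limit. DOP and WCOC were read on separate flow cells, and with flow cell as a covariate edgeR called 1 gene of all in WCOC vs. DOP. TOLLIP, the most abundant member, had 0.14 in WCOC vs. C (adjusted p = 0.542 by edgeR).

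Of 13 tested target genes, 2 were DEGs in WCOC vs. C, against 6.25% of all tested genes, with a list median of −0.42. SOD2, the mitochondrial superoxide dismutase and the most abundant target, had 120 ± 8.96 CPM in WCOC, 183 ± 26.0 in C and 196 ± 46.9 in DOP (n = 5 each). Its log2FC in WCOC was −0.61 against C (adjusted p = 0.0162 by edgeR) and −0.71 against DOP (adjusted p = 0.00764 by edgeR). The value against DOP has the same flow cell limit as that of SIGIRR. ISG15, an interferon-induced ubiquitin-like protein, had 8.62 ± 3.26 CPM in WCOC and 17.1 ± 4.42 in C (log2FC −0.99, adjusted p = 0.0257 by edgeR).

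**Figure D5:**
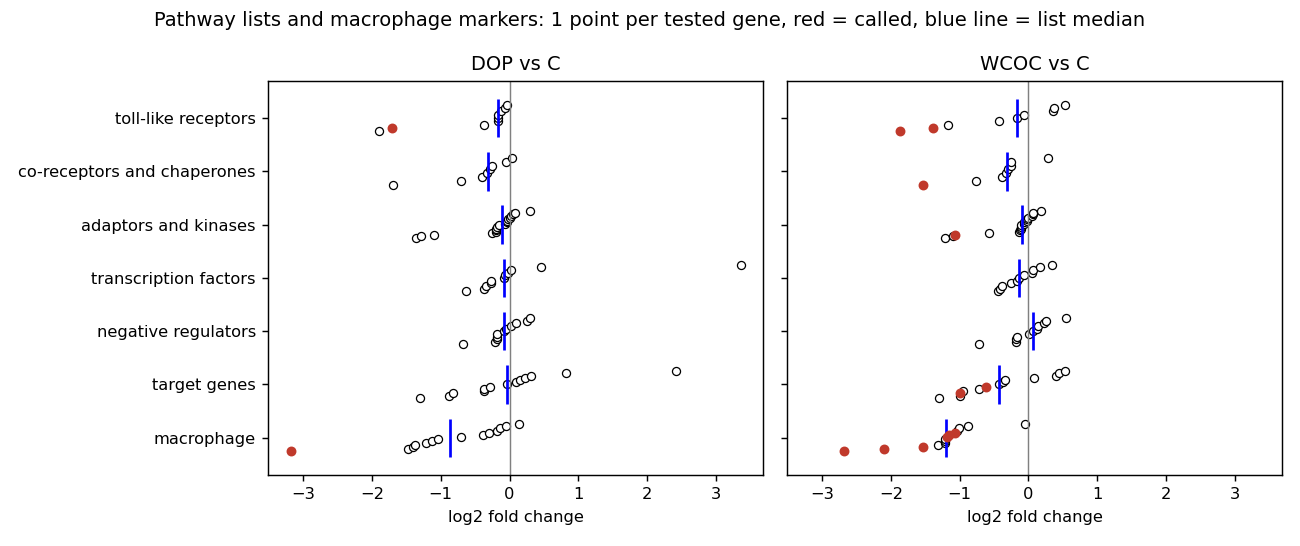
Log2FC of each tested gene in 6 pathway lists and the macrophage markers, for DOP vs. C and WCOC vs. C, with DEGs filled and the list median as a line. The macrophage medians are −0.87 and −1.20, and the other medians lie between −0.42 and 0.07.

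The genes whose levels were most like those of each receptor, by Pearson r of log2 CPM over the 15 libraries with each diet's mean removed, are given as a description. TLR2 was most like GIMAP6 (r = 0.967) and CD53 (r = 0.951), TLR8 was most like CD86 (r = 0.918) and MAT2B (r = 0.908), and TLR9 was most like NFKB1 (r = 0.884) and WAS (r = 0.880). TLR7 was most like LMNB2 (r = 0.852) and SPN (r = 0.851), TLR3 like VPS4B (r = 0.914) and TRIM56 (r = 0.908), and TLR5 like LRCH3 (r = 0.950) and FMR1 (r = 0.940). TLR4 was most like DAPP1 (r = 0.887) and NXPE3 (r = 0.877), TLR1 like ADPGK (r = 0.895) and GPR35 (r = 0.851), and TLR6 like MARCO (r = 0.826), a scavenger receptor in the macrophage list, and SEC31B (r = 0.804). The points share depth and tissue make-up, and the pairs were picked as the highest of all tested genes with a symbol.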

How the data were processed

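RNA of backfat from 5 pigs per diet was sequenced as 15 libraries of paired reads of 76 bases. The authors checked reads with FastQC, aligned them without trimming to Sscrofa11.1 with HISAT2 and HTSeq then gave the count of each Ensembl gene. The deposited values are raw counts per gene, neither normalized nor pooled, and CPM and log2 values were computed here from them. Summary lines for uncounted reads, 23.4% to 32.8% of a library, were left out. How HTSeq treated strand, and which Ensembl release it read, is not given in the sources used here, so overlapping genes are uncertain. Nothing in the labels says more of the replicates than that each is a separate sample; by the study's methods each is 1 pig.

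Genes were kept by filterByExpr with diet as group, TMM factors were computed, and edgeR 4.0.16 (R 4.3.3) fitted its quasi-likelihood model to the 15 libraries together, with a mean for each diet. Contrasts were two-sided. CPM include the TMM factor, and a prior count of 1 was added before log2. The study's own tool, DESeq2 (1.42.0), was an alternative. Other alternatives were DESeq2 size factors, no filter, no size limit, only the diets compared, a replicate block, flow cell or macrophage markers as covariates, flow cell A alone, and each library left out. Permutation tests used 100000 resamples, two-sided. Flow cells were read from run identifiers. The fit was tested on simulated data. Intervals cover the spread between these pigs only.

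Symbols came from a reference table that paired all 10 receptors with identifiers. Positions and sequences came from RefSeq on Sscrofa11.1, read with pysam 0.24.0, and coding sequences were aligned with Biopython 1.88. The named genes were all 10 receptors, in each pathway list the DEGs and the most abundant member, and for each tested receptor the 2 genes most like it. UNC93B1, MYD88 and IRAK2, picked after their values were seen, were named besides. So were TBK1 and single markers of cell types. The receptors and the lists of pathway genes and cell type markers were chosen with earlier results of these data known.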

Additional observations from a re-analysis of the deposited data

Results flagged for a closer look

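A level that stood far from the other 4 pigs of its diet was found for 2 of the 30 combinations of a receptor and a diet, and chance gives about 1 in 20 such cases. TLR4 had 29.7 CPM in control 5, the nearest control being at 18.2 CPM, a gap of 0.762 of the range in C. TLR10 had 0.354 CPM in WCOC 5, the nearest WCOC pig being at 0.150 CPM, a gap of 0.790 of the range, and both levels rest on 12 counts or fewer.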

How the results depend on the processing

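In DOP vs. C the count of 1 receptor called became 0 with no filter on low counts, with only the compared diets fitted, with the replicate block, with the macrophage covariate and without controls 3 and 5 together (an alternative chosen after seeing the data), and 2 with DESeq2 and with flow cell as a covariate. It was 0 to 1 when 1 library was left out. In WCOC vs. C the count of 2 became 0 with the replicate block, with flow cell as a covariate, within flow cell A, with the macrophage covariate and without controls 3 and 5, and 3 with DESeq2 (TLR2 added) or no size limit (TLR7 added). It was 0 to 3 when 1 library was left out, and 0 without control 3, control 5, WCOC 1, WCOC 3 or WCOC 4. The DOP count was 1 without control 1 or control 2 and 0 without any other library. In WCOC vs. DOP the count of 0 became 1 (TLR7) with no size limit and was 0 to 0 with each library left out. The cause was not tested.

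Same-numbered pigs of different diets deviated with r from −0.495 to 0.345, over 0.1 in 3 of 15 pairs. Pigs of different numbers were not compared, so a pairing by number was neither shown nor excluded. Under the replicate block the calls of TLR8 and TLR9 were lost, with log2FC of −1.70 and −1.41 in WCOC vs. C and −1.72 for TLR9 in DOP vs. C, and TLR4 (−0.02) and TLR8 (−0.03) changed sign in WCOC vs. DOP.

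Of 486 alternative values for 27 log2FC, 414 kept direction and DEG status, 33 lost and 4 gained a DEG call, and 35 changed sign; none of the sign changes concerned a called value. By adjusted p alone, TLR7 also rose above 0.05 in WCOC vs. C with the macrophage covariate (0.105) and in WCOC vs. DOP with flow cell as a covariate (0.196), and TLR3 in WCOC vs. C came under it with flow cell as a covariate (0.0463) and without control 5 (0.0468). The sign changes are listed by setting. With flow cell as a covariate they were TLR6 in DOP vs. C (0.03), TLR4 in WCOC vs. C (0.04) and TLR2 in WCOC vs. DOP (0.49), and within flow cell A TLR4 (0.03). With the macrophage covariate they were TLR1 (0.01), TLR2 (0.50), TLR4 (0.13) and TLR6 (0.12) in DOP vs. C and TLR1 (0.21), TLR2 (0.20) and TLR4 (0.31) in WCOC vs. C. Without controls 3 and 5 they were TLR2 (0.23), TLR3 (0.02) and TLR4 (0.08) in DOP vs. C and TLR4 (0.08) in WCOC vs. C. With 1 library left out, values crossed 0 in DOP vs. C for TLR3 (−0.13 to 0.11), TLR4 (−0.31 to 0.04), TLR5 (−0.36 to 0.02) and TLR6 (−0.18 to 0), in WCOC vs. C for TLR1 (−0.16 to 0.05) and TLR4 (−0.26 to 0.04), and in WCOC vs. DOP for TLR1 (−0.01 to 0.17), TLR4 (−0.09 to 0.14) and TLR8 (−0.21 to 0.17). Depth limits TLR9 and TLR10, with at most 71 and 15 counts per library.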
